A study of Homo sapiens with 18 samples.

Results

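Transcripts of 10 cadherin genes were followed in A549 cells, a human lung adenocarcinoma line, kept with or without sodium propionate (SP). The genes were taken by symbol and not by any measured value: CDH1, CDH2, CDH3, CDH4, CDH5, CDH6, CDH11, CDH13, CDH16 and CDH17, 10 of the 61541 genes counted. Of the 10, 8 had enough reads to be tested in both experiments, and CDH11 and CDH13 did not. The set is often grouped as classical cadherins, a name that covers 7 of the 10. CDH1, CDH2, CDH3 and CDH4 are type I and CDH5, CDH6 and CDH11 are type II classical cadherins, whereas CDH13 is held in the membrane by a lipid anchor and CDH16 and CDH17 belong to the 7D cadherins.

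Total RNA was sequenced in paired ends, with 3 libraries in each of 6 groups. In the first experiment, untreated wild-type A549 cells (control, 3 days) were set beside cells kept in 5 mM SP for 3 days or 12 days. In the second, an untreated control (24 h) was set beside cells kept in 5 mM SP for 3 h or 24 h. SP is the sodium salt of a short-chain fatty acid that gut bacteria release from dietary fibre, and the question was how the epithelial and mesenchymal features of these cells differ with it. All groups are the same line in the same medium, no control was taken at 3 h or 12 days, and exposure to SP and time in culture cannot be told apart in those groups.

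Cadherins are single-pass or lipid-anchored surface proteins that bind the same cadherin on the next cell in the presence of calcium. The cytoplasmic tail of a classical cadherin binds p120-catenin and β-catenin, and α-catenin ties the complex to actin. E-cadherin, the product of CDH1, is the cadherin of epithelial adherens junctions, and N-cadherin, the product of CDH2, is found in neural, muscle and mesenchymal cells. In the epithelial to mesenchymal transition (EMT), E-cadherin is lost while N-cadherin is gained, which is known as the cadherin switch. The transcriptional repressors SNAI1, SNAI2, ZEB1 and ZEB2 bind E-box sequences in the CDH1 promoter.

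Reference sequence before a RefSeq transcript start (GRCh38.p14) was at hand for CDH2 and CDH4, a type I pair. The pair changed in the same direction at 3 days and in opposite directions at 12 days, though both CDH4 calls were lost under some alternatives, given below. Each line below gives 250 bases 5′ to 3′ on the strand of the gene, ending at the base before the start. Capitals mark the E-box CAGGTG or its reverse complement CACCTG, the sequence to which SNAI and ZEB proteins bind.
CDH2, chr18:28177131-28177380, minus strand: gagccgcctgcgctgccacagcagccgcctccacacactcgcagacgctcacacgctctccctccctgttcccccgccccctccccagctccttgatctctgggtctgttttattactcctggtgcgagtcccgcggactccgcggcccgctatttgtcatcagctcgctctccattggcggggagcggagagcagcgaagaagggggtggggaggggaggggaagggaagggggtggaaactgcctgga
CDH4, chr20:61499171-61499420, plus strand: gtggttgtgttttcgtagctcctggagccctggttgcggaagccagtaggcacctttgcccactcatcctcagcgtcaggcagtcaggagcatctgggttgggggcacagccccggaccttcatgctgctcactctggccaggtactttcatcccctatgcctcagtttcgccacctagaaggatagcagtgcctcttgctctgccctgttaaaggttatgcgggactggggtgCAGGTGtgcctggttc
CDH4 held 1 match, which began 16 bases before the transcript start, and CDH2 held 0 in this window. Of 35116 promoter windows of the same length, 17.5% held at least 1 match on either strand. A second window of each gene in the same set held 0 matches. CDH4 begins at 61252261, so both of its windows lie inside the gene, before internal transcript starts. The CDH2 window shown lies near the 5′ end of its gene, which is at 28177946 on the minus strand. The windows shown are thus not at like positions of their genes. These letters say nothing of whether a factor was bound.

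The libraries held 14187401 to 43765330 counted reads. Levels are given as CPM, reads scaled to a fixed library total with TMM factors, for comparisons of a gene between libraries, and as CPM per kilobase of exon (RPKM) for comparisons between genes. The experiments were scaled separately, so levels set across them carry that limit. The root mean square log2 distance of a library from the mean of the others in its group was 0.557, 0.435 and 0.637 in the 24 h control (replicates 1 to 3). It was 0.384, 0.435 and 0.490 at SP 3 h and 0.307, 0.356 and 0.474 at SP 12 days. In the remaining groups it was 0.263 to 0.404. The label of the line was checked on 10 epithelial markers, whose summed level was 7527 to 11444 CPM in the controls. Alveolar markers summed to 65.9 to 134 CPM in the controls, with SFTPA1 at 0 reads in both control groups. Most of this sum was ABCA3, at a mean of 97.3 CPM in the 24 h control and 104.6 CPM in the 3 days control. Of the 8 alveolar genes, 7 and 6 were under 1 CPM in these groups.

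At 3 h, 0 of the 8 tested cadherins changed in edgeR and 0 in DESeq2, where 11.5% of all tested genes changed at an adjusted p under 0.05 and 4367 genes had an unadjusted p under 0.05. After 24 h, 3 of 8 changed against a background of 28.8%: CDH1 and CDH3 rose and CDH6 fell. At 3 days, 6 of 8 changed against 48.6%, with CDH1, CDH2, CDH3 and CDH4 higher and CDH5 and CDH6 lower. At 12 days, 8 of 8 changed against 49.8%, with CDH1, CDH2 and CDH3 higher and CDH4, CDH5, CDH6, CDH16 and CDH17 lower. The medians over the 8 genes were −0.09, 0.27, 0.40 and −0.70 on the log2 scale, where those of all tested genes were 0.0034, −0.01, −0.02 and −0.0037. In single directions, 7.39% of all genes were higher and 4.11% lower at 3 h, 16.8% and 12% at 24 h, 25.2% and 23.3% at 3 days, and 26.4% and 23.4% at 12 days. At an adjusted p under 0.0001 with a fold change of 2 or more, 0, 0, 2 and 3 cadherins passed, against 0%, 0.685%, 8.44% and 9.11% of all genes. Between SP 24 h and SP 3 h, 2 cadherins differed, CDH1 and CDH3, both higher, against 20.1% of all genes (11.7% higher and 8.4% lower), and 4 with the replicate block. Between SP 12 days and SP 3 days, 3 differed, with CDH3 higher and CDH4 and CDH17 lower, against 8.1% (4.46% higher and 3.65% lower), and 7 without SP 12 days replicate 3. By the stricter rule these comparisons gave 0 cadherins, against 0.0288% and 0.18% of all genes. The 3 h and 24 h comparisons share their control libraries, as do those at 3 and 12 days. The paper calls the 3 libraries per group of the 3 h and 24 h experiment biological replicates, and gives only the number for 3 and 12 days. Whether the libraries of a group came from separate cultures is not spelled out. The p-values measure the spread between these libraries, which may be in part technical.

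**Figure D1:**
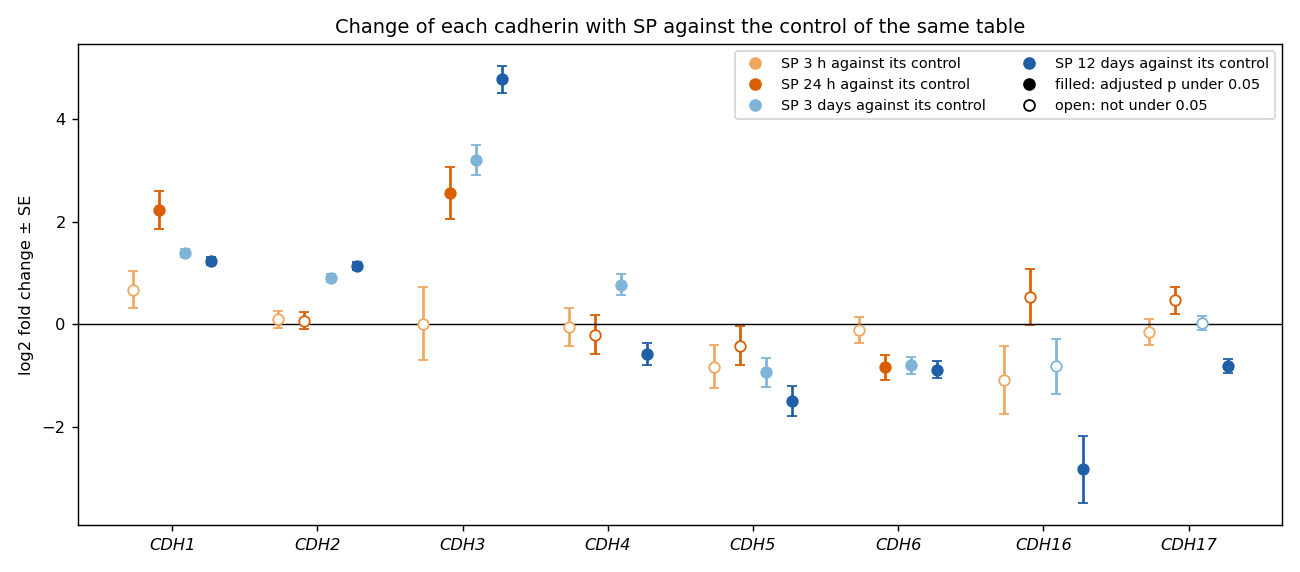
Log2 fold change (vertical axis, with its standard error) of the 8 tested cadherins in SP against the control of the same experiment, by time. Filled points passed an adjusted p under 0.05 in edgeR and open points did not. CDH1 and CDH3 were filled and above 0 at 24 h, 3 days and 12 days, CDH2 at 3 and 12 days, and CDH6 was filled and below 0 at 24 h, 3 days and 12 days.

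CDH1 (ENSG00000039068, GRCh38 chromosome 16, 68737292 to 68835537, plus strand) was already spread in the short experiment. Its levels were 19.4, 46.5 and 38.1 CPM in the 24 h control, 48.7, 82.3 and 34.8 CPM at SP 3 h, and 149, 183 and 155 CPM at SP 24 h. The libraries at 3 h overlapped the control, and every library at 24 h lay above both other groups. The log2 fold change was 0.67 (SE 0.36, edgeR adjusted p = 0.289) at 3 h and 2.23 (SE 0.37, edgeR adjusted p = 0.00265) at 24 h. The increase between 3 h and 24 h was 1.55 (SE 0.36, edgeR adjusted p = 0.0178), a call that was lost without SP 3 h replicate 1 (1.47), SP 3 h replicate 3 (1.31) or SP 24 h replicate 2 (1.46), with adjusted p of 0.0640, 0.0584 and 0.0620. In the long experiment the control libraries held 153, 163 and 158 CPM, SP 3 days 394, 408 and 434 CPM, and SP 12 days 363, 358 and 387 CPM. No SP library overlapped the control. The rise was 2.61-fold at 3 days (log2 1.38, SE 0.08, edgeR adjusted p = 1.45e-09) and 2.34-fold at 12 days (log2 1.23, SE 0.08, edgeR adjusted p = 4.33e-09), and the difference between 12 and 3 days, −0.16 (SE 0.08), did not pass (edgeR adjusted p = 0.224). Without SP 12 days replicate 3 that difference was −0.21 and passed (edgeR adjusted p = 0.0259). CDH1 shares 347 bases of exon with an antisense long noncoding RNA, and its reads cannot be told from those of that gene, as the counting is not stated to use strand.

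CDH2 (ENSG00000170558, chromosome 18, 27932879 to 28177946, minus strand) did not pass at 3 h or 24 h and rose at 3 and 12 days, together with CDH1. The 24 h control held 74.7, 98.9 and 121 CPM, SP 3 h 97.6, 111 and 106 CPM, and SP 24 h 91.7, 106 and 111 CPM. The SP libraries lay within the range of the control. The log2 differences were 0.10 (SE 0.16, edgeR adjusted p = 0.778) and 0.07 (SE 0.16, edgeR adjusted p = 0.775), and both turned negative without control (24 h) replicate 1. In the long experiment, CDH2 was at 51.5, 55.6 and 53.4 CPM in the control, 96.0, 104.8 and 98.9 CPM at SP 3 days, and 123, 117 and 114 CPM at SP 12 days. All 6 SP libraries lay above all 3 controls, and each 12 days library lay above each 3 days library. The rise was 1.87-fold at 3 days (log2 0.90, SE 0.08, edgeR adjusted p = 1.38e-07) and 2.20-fold at 12 days (log2 1.14, SE 0.08, edgeR adjusted p = 8.77e-09). The step from 3 to 12 days was 0.24 (SE 0.08) and did not pass (edgeR adjusted p = 0.0610), though it did without SP 12 days replicate 3 (0.25, adjusted p = 0.0122).

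In a fit of all 18 libraries, the SP effect on CDH2 at 24 h minus that at 3 days was −0.88 on the log2 scale (SE 0.19, edgeR adjusted p = 0.0117), where 6.28% of all genes differed (3.15% higher and 3.13% lower, and 0.101% by the stricter rule). For CDH1 the effect at 24 h exceeded that at 3 days by 0.81 (SE 0.38), which did not pass (edgeR adjusted p = 0.243). Time, experiment and control are all different between these effects and cannot be told apart.

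**Figure D2:**
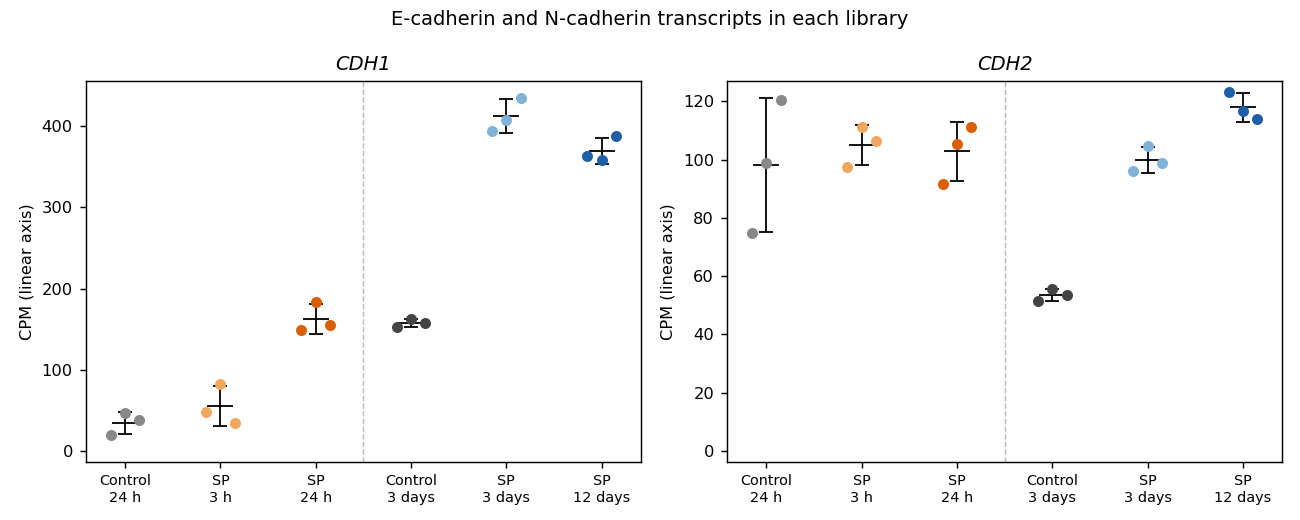
CPM (linear vertical axis) of CDH1 and CDH2 in the 3 libraries of each group, with the mean and SD as a line and bar. The dashed line separates the experiments, which were scaled separately. CDH1 stood at 149 to 183 CPM at SP 24 h against 19.4 to 46.5 CPM in its control, while CDH2 first rose above its control at SP 3 days (96.0 to 104.8 against 51.5 to 55.6 CPM).

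Per exon length, the CDH1 to CDH2 ratio was 0.367, 0.664 and 0.446 in the 24 h control libraries, so that CDH2 was the more abundant. It was 0.706, 1.05 and 0.462 at SP 3 h and 2.30, 2.45 and 1.96 at SP 24 h, where CDH1 led in every library. On the log2 scale, the difference from control was 0.55 at 3 h, with overlapping groups, and 2.22 at 24 h, with no overlap. In the 3 days control the ratio was 4.19, 4.14 and 4.16, so CDH1 led without SP. It was 5.79, 5.50 and 6.21 at SP 3 days, a log2 difference of 0.48 with no overlap. At SP 12 days it was 4.15, 4.33 and 4.80, a log2 difference of 0.09 with overlap, as CDH1 and CDH2 were both higher. The ratio within a library does not depend on library scaling, and the choice of length does not move its differences between groups. It does set the level of the ratio: with the longest transcript in place of all exons as length, every ratio was 1.69-fold lower, at 0.217 to 0.392 in the 24 h control, 0.273 to 0.618 at SP 3 h, 1.16 to 1.45 at SP 24 h and 2.44 to 2.48 in the 3 days control. The library above 1 at SP 3 h then fell below it, and CDH1 still led in every library from SP 24 h on.

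CDH3 (ENSG00000062038, chromosome 16, 68636189 to 68727468) encodes P-cadherin, a type I cadherin of basal epithelial layers and placenta. It lies 9823 bases before CDH1 on the same strand. Its level was low throughout: the 24 h control held 0.0529, 0.106 and 0.561 CPM, SP 3 h 0.353, 0.259 and 0.245 CPM, and SP 24 h 1.497, 1.86 and 1.52 CPM. SP 24 h lay above all others in its experiment, a log2 fold change of 2.56 (SE 0.51, edgeR adjusted p = 0.00548), and 16 of the 19 control reads came from control (24 h) replicate 3. Without that library the log2 fold change was 4.28, and the ratio of scaled reads, 165 against 3, was 21.0 (95% counting interval 7.06 to 103). In the long experiment, CDH3 was at 0.335, 0.188 and 0.591 CPM in the control, 3.72, 3.60 and 3.17 CPM at SP 3 days, and 8.98, 9.88 and 12.3 CPM at SP 12 days. The 3 groups did not overlap. The log2 fold change was 3.21 (SE 0.30, edgeR adjusted p = 3.23e-07) at 3 days and 4.78 (SE 0.26, edgeR adjusted p = 9.29e-10) at 12 days, and the step from 3 to 12 days was 1.58 (SE 0.19, edgeR adjusted p = 1.27e-04). CDH3 had the largest log2 rise of the 8 tested members in these 3 comparisons with control. Outside the 10 genes, CDH22 rose more at 3 days (5.89) and PCDH1 at 24 h and 3 days (3.83 and 3.99). Counted reads at 12 days and in the control were 618 and 20, a scaled ratio of 28.4 (counting interval 18.3 to 46.9). CDH3 shares 537 bases of exon with CDH3-AS1.

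CDH4 (ENSG00000179242, chromosome 20, 61252261 to 61940617) encodes R-cadherin, a type I cadherin first described in retina. Levels were 15.6, 22.8 and 50.5 CPM in the 24 h control, 30.5, 29.1 and 26.1 CPM at SP 3 h, and 19.6, 26.4 and 31.5 CPM at SP 24 h. The control alone spanned the SP groups, mostly through replicate 3. At 24 h the log2 difference was −0.20 (SE 0.37, edgeR adjusted p = 0.704), and 0.43 without control (24 h) replicate 3. In the long experiment, CDH4 was at 13.8, 12.1 and 14.5 CPM in the control, 22.6, 24.2 and 22.5 CPM at SP 3 days, and 6.83, 6.69 and 13.1 CPM at SP 12 days. It rose at 3 days by 0.77 on the log2 scale (SE 0.21, edgeR adjusted p = 0.00826), a call that ended after a correction for GC content and gene length (0.35, adjusted p = 0.107). At 12 days it stood at −0.59 (SE 0.22, edgeR adjusted p = 0.0400), with SP 12 days replicate 3 inside the control range, and this call ended on leaving out any of 6 of the 9 libraries (adjusted p up to 0.124). The fall between 3 and 12 days, −1.36 (SE 0.21, edgeR adjusted p = 0.00261), passed without any of the 9 libraries.

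CDH5, CDH6 and CDH11 are type II cadherins. CDH5 encodes VE-cadherin of endothelial junctions, CDH6 encodes K-cadherin of kidney and neural crest, and CDH11 encodes OB-cadherin of osteoblasts and mesenchyme. CDH5 (chromosome 16, 66366690 to 66404784) was near the detection limit, at 9 to 18 reads in the 24 h control libraries. It was at 1.72, 2.13 and 1.89 CPM in the 3 days control, 0.671, 1.28 and 1.02 CPM at SP 3 days, and 0.759, 0.748 and 0.532 CPM at SP 12 days. Both SP groups lay below the control. The log2 fold change was −0.94 (SE 0.28, edgeR adjusted p = 0.0122) at 3 days, which was lost with DESeq2 (adjusted p = 0.0565) and without SP 3 days replicate 1 (edgeR adjusted p = 0.0664), and −1.496 (SE 0.30, edgeR adjusted p = 5.64e-04) at 12 days. Among 10 endothelial markers, ESAM, an adhesion molecule of endothelial and other tight junctions, rose in all 4 comparisons (log2 fold change 0.64, 1.45, 2.75 and 1.73), EMCN and ERG held 0 reads in every group, and the summed level was 3.51 to 4.69 CPM in the 3 days control and 22.3 to 24.6 CPM at SP 3 days.

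CDH6 (ENSG00000113361, chromosome 5, 31193686 to 31329146) was the type II member with the most reads. It was at 11, 18.9 and 11.4 CPM in the 24 h control, 12.6, 15.6 and 9.86 CPM at SP 3 h, and 7.45, 8.95 and 6.55 CPM at SP 24 h. The 24 h libraries lay below all controls, with a log2 fold change of −0.84 (SE 0.25, edgeR adjusted p = 0.0315). That call was lost without control (24 h) replicate 2, SP 3 h replicate 1 or any of the SP 24 h libraries (adjusted p up to 0.108). In the long experiment, CDH6 was at 44.8, 46.3 and 43.9 CPM in the control, 24.8, 27.7 and 24.8 CPM at SP 3 days, and 21.2, 18.5 and 32.8 CPM at SP 12 days. No SP library reached the control range. The log2 fold change was −0.80 (SE 0.16, edgeR adjusted p = 0.00142) at 3 days and −0.89 (SE 0.16, edgeR adjusted p = 6.39e-04) at 12 days, and the 2 SP times differed by −0.09 (SE 0.17, edgeR adjusted p = 0.811). Without SP 12 days replicate 3 that difference was −0.39 (edgeR adjusted p = 0.00443). Of the CDH6 exon bases, 1109 are shared with the pseudogene DUX4L51 and 125 with an antisense long noncoding RNA.

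CDH11 held 0, 3 and 1 reads in the control (24 h), SP 3 h and SP 24 h groups, and 1, 4 and 10 reads in the control (3 days), SP 3 days and SP 12 days groups. Of the 10 reads at 12 days, 7 came from SP 12 days replicate 3, and the scaled ratio to control was 9.21 (counting interval 1.31 to 400). Fibroblast and osteoblast markers summed to 17.3 to 18.6 CPM in the 3 days control, 69.6 to 79.1 CPM at SP 3 days and 44.3 to 73.0 CPM at SP 12 days. Most of this sum was COL1A1, at means of 13.3, 61.9 and 37.0 CPM in these groups. Of the 10 genes, 7, 6 and 6 were under 1 CPM, and POSTN held 0 reads in every group. CDH13, T-cadherin, held 1, 2 and 4 reads in the short experiment and 2, 0 and 0 reads in the long one, in the same order of groups. For CDH13, no interval that could be computed left out a ratio of 1, and no difference was detectable at this depth.

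CDH16 and CDH17 are 7D cadherins, with short tails that do not bind β-catenin. CDH16 (chromosome 16, 66908122 to 66918917) encodes kidney-specific cadherin. It was at 2.82, 1.82 and 2.96 CPM in the 3 days control, 1.22, 1.22 and 1.85 CPM at SP 3 days, and 0, 0.0499 and 0.886 CPM at SP 12 days. SP 12 days lay below the control, and SP 3 days reached into its range. The log2 fold change was −0.83 (SE 0.54, edgeR adjusted p = 0.236) at 3 days and −2.83 (SE 0.66, edgeR adjusted p = 0.00461) at 12 days. Of its 21 reads at 12 days, 20 came from SP 12 days replicate 3. Without that library the group held 1 read against 138, 92.0-fold lower after scaling (counting interval 16.2 to 3659). Renal markers summed to 3.59 to 4.01 CPM in the 3 days control and 4.39 to 9.70 CPM at SP 12 days, with UMOD at 0 reads in every group.

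CDH17 (ENSG00000079112, chromosome 8) encodes liver-intestine cadherin. It was at 15.9, 21.0 and 11.1 CPM in the 24 h control, 12.9, 18.6 and 11.4 CPM at SP 3 h, and 25.1, 23.0 and 17.9 CPM at SP 24 h. At 24 h the log2 difference was 0.46 (SE 0.26, edgeR adjusted p = 0.205). In the long experiment, CDH17 was at 73.5, 77.3 and 73.2 CPM in the control, 71.2, 78.9 and 77.8 CPM at SP 3 days, and 38.1, 33.8 and 54.9 CPM at SP 12 days. It overlapped the control at 3 days and lay below every control library at 12 days. The log2 fold change was 0.02 (SE 0.14, edgeR adjusted p = 0.897) at 3 days and −0.82 (SE 0.14, edgeR adjusted p = 2.48e-04) at 12 days, and the step between them was −0.84 (SE 0.14, edgeR adjusted p = 0.00246). Among 8 intestinal markers, MUC2 and LGALS4 were lower at 12 days, CDX1 and FABP1 held 0 reads in every group, and the summed level was 16.7 to 18.3 CPM in the 3 days control and 15.2 to 23.5 CPM at SP 12 days.

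**Figure D3:**
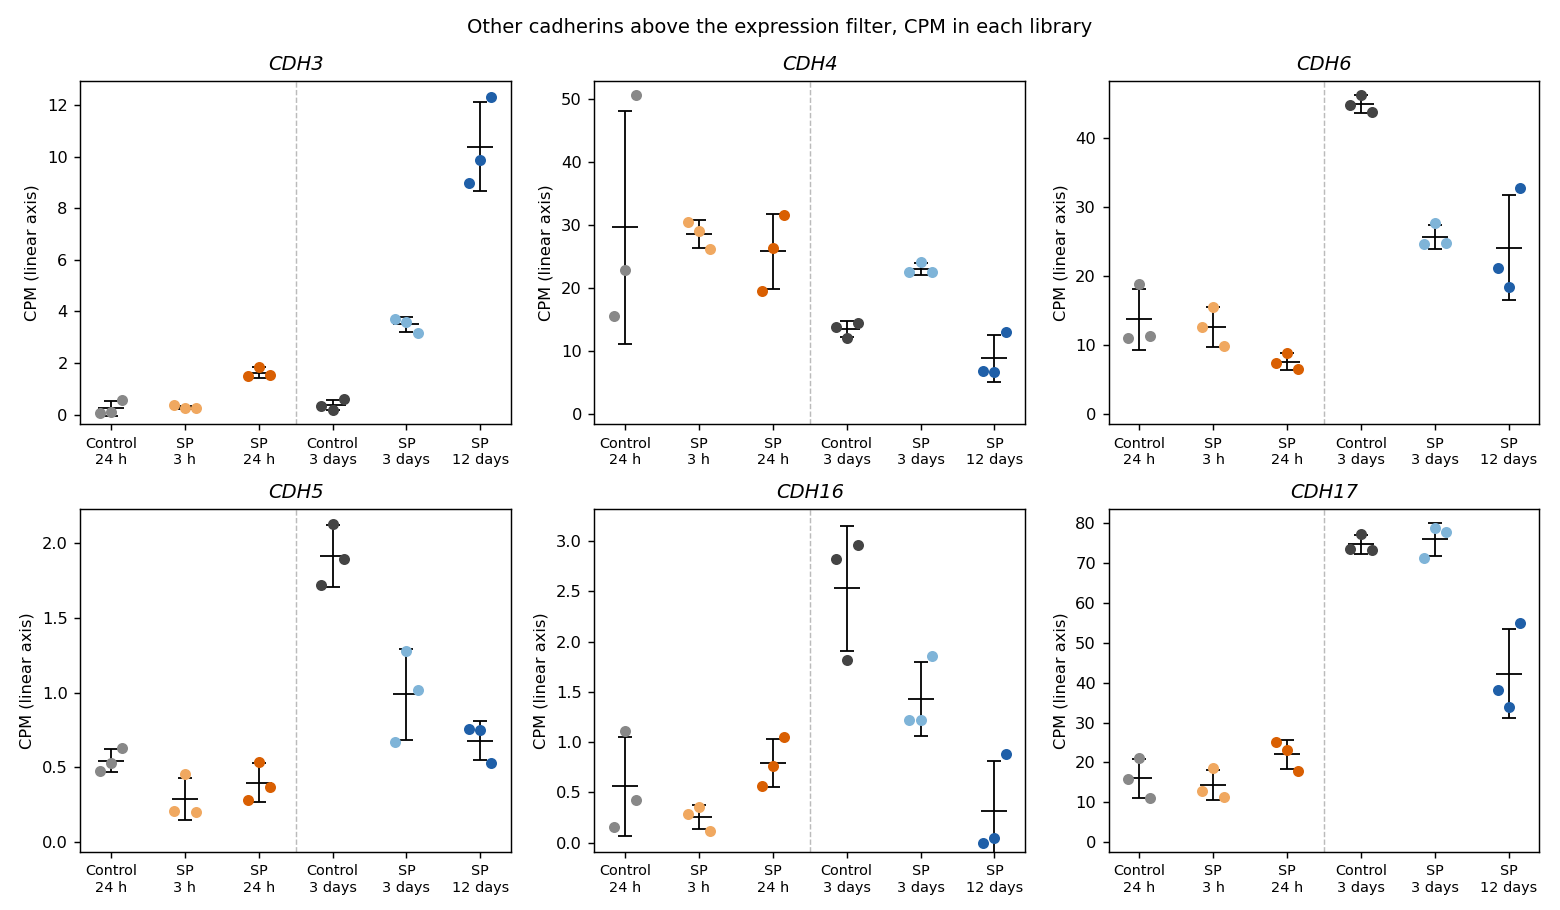
CPM (linear vertical axes of different range) of the 6 other tested cadherins in the 3 libraries of each group, with the mean and SD. The dashed line separates the experiments. CDH3 went from 0.188 to 0.591 CPM in the 3 days control to 8.98 to 12.3 CPM at SP 12 days, CDH4 was at 22.5 to 24.2 CPM at SP 3 days and 6.69 to 13.1 CPM at SP 12 days, and CDH17 fell below its control at SP 12 days alone.

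With the replicate number as a block, which assumes a pairing that is uncertain, the same count of 3 was obtained at 24 h. With the block and a correction for GC content and length together, 5 cadherins changed, as CDH17 (0.54, edgeR adjusted p = 0.0101) and CDH4 (−0.70, edgeR adjusted p = 0.0146) were added. The correction for GC content and length alone moved the median of all genes at 24 h from −0.01 to −0.13 on the log2 scale, and the share of higher genes among those changed from 58.3% to 36.3%. At 3 days that share went from 52.0% to 39.1%, at 12 days from 53.0% to 41.4% and at 3 h from 64.3% to 47.9%. Relative to the shifted median, CDH1 was at 2.19 at 24 h, 1.36 at 3 days and 1.22 at 12 days, and CDH2 at 0.98 at 3 days and 1.16 at 12 days.

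Per exon length, the order of the cadherins differed between groups. In the 24 h control CDH2 led at 11.4 ± 2.68 RPKM (SD, n = 3), followed by CDH1 at 5.71 ± 2.28, CDH17 at 4.13 ± 1.28 and CDH4 at 3.95 ± 2.45, and the last 3 overlapped each with the next. At SP 24 h CDH1 led at 26.7 ± 3.01 RPKM, above CDH2 at 12.0 ± 1.17, with no overlap. In the 3 days control the order was CDH1 at 25.96 ± 0.803, CDH17 at 19.3 ± 0.595, CDH2 at 6.24 ± 0.235 and CDH6 at 3.61 ± 0.100 RPKM, and no neighbours among these overlapped. At SP 3 days CDH1 was at 67.8 ± 3.42 RPKM and at SP 12 days at 60.8 ± 2.59 RPKM. CDH2 moved ahead of CDH17 at 12 days, at 13.7 ± 0.572 and 10.9 ± 2.88 RPKM, with overlapping libraries. This order depends on the length used. With the longest transcript, CDH2 led CDH17 already at SP 3 days (23.9 to 26.1 against 19.4 to 21.5 RPKM) and at SP 12 days (28.4 to 30.7 against 9.20 to 14.96 RPKM), with no overlap at either time, and CDH4 and CDH17 changed places in the 24 h control. The share of CDH1 in the summed RPKM of the 10 genes was 44.4% to 45.1% in the 3 days control, 63.2% to 65.5% at SP 3 days and 65.1% to 69.1% at SP 12 days, and 16.8% to 25.9% in the 24 h control and 52.7% to 56.7% at SP 24 h. With the longest transcript these shares were 43.4% to 43.9%, 60.2% to 62.8% and 60.6% to 62.9%, and 13.1% to 21.0% and 45.3% to 49.9%. Between the controls, which were not tested against each other, every library had more CDH17, CDH1 and CDH6 and less CDH2 at 3 days than at 24 h. Their time and their experiment cannot be told apart.

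**Figure D4:**
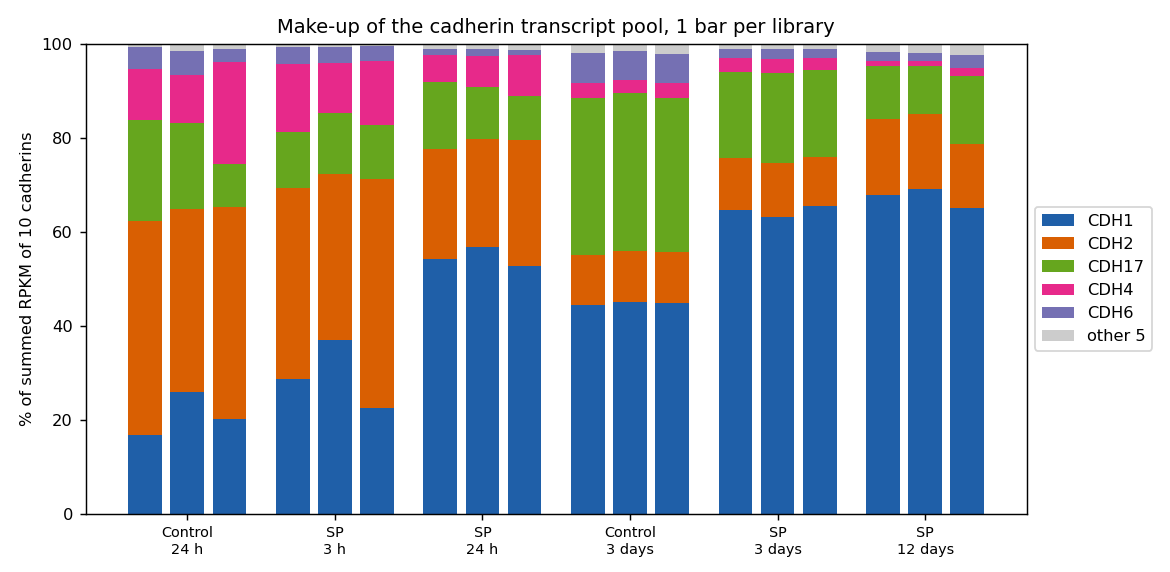
Share of the summed RPKM of the 10 cadherins (vertical axis, %) taken by each of 5 genes and by the other 5 together, with 1 bar per library. CDH1 made up 16.8% to 25.9% of the pool in the 24 h control and 65.1% to 69.1% at SP 12 days.

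The partners of cadherins were compared next, from a list of 18 catenins and adherens junction genes of which 15 were tested. Higher and lower members numbered 3 and 0 at 3 h, 6 and 2 at 24 h, 8 and 1 at 3 days, and 9 and 1 at 12 days, with medians of 0.19, 0.37, 0.45 and 0.44 on the log2 scale. Over all genes the higher and lower shares were 7.39% and 4.11%, 16.8% and 12%, 25.2% and 23.3%, and 26.4% and 23.4%. CTNNA1, α-catenin, did not pass in any comparison (log2 differences of −0.05 to 0.10), nor did CTNND1, p120-catenin (−0.08 to 0.40). CTNNB1, β-catenin, fell at 24 h alone by 0.39 (SE 0.09, edgeR adjusted p = 0.0106), and JUP, plakoglobin, rose at 24 h by 1.30 (SE 0.30, edgeR adjusted p = 0.0116), with 0.06 and −0.03 later. LIMA1, an actin-binding protein linked to α-catenin, rose in all 4 comparisons by 1.20, 1.88, 1.33 and 1.996. ARVCF, a catenin of the p120 family, rose by 1.11, 0.70, 1.68 and 1.81, and NECTIN1, a cell adhesion molecule, by 1.16 at 24 h, 0.84 at 3 days and 0.47 at 12 days. Genes named here without values stand behind small counts and were named after their values were seen, such as PKP4, which fell at 24 h, 3 days and 12 days.

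Of 12 genes that cut, sort or traffic cadherins, all tested, 0 changed at 3 h, 3 were higher and 1 lower at 24 h, 6 and 2 at 3 days, and 5 and 3 at 12 days. The changed shares of all genes were 11.5%, 28.8%, 48.6% and 49.8%, and the 4 of 12 at 24 h lie near the second of these. PCSK5, a proprotein convertase, rose by 1.22, 1.44 and 1.96 at 24 h, 3 days and 12 days, and ADAM15, a metalloprotease, by 0.73, 0.65 and 0.34. RAB11A, of recycling endosomes, rose by 0.34, 0.50 and 0.71.

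Of 13 repressors of CDH1, 11 were tested, and 2 were higher and 0 lower at 3 h, 2 and 1 at 24 h, 4 and 3 at 3 days, and 5 and 3 at 12 days. Of all genes 11.5%, 28.8%, 48.6% and 49.8% changed, and the 3 of 11 repressors at 24 h lie near that background. SNAI1 was higher in all 4 comparisons, by 2.66, 1.84, 2.80 and 1.89 on the log2 scale, at 1.21 ± 0.44 CPM (SD, n = 3) in the 24 h control and 7.81 ± 0.72 CPM at SP 3 h. SNAI2 was higher at 3 days by 1.41 (SE 0.41, edgeR adjusted p = 0.00972) and at 12 days by 2.01 (SE 0.38, edgeR adjusted p = 3.96e-04). ZEB1 fell at both late times (log2 fold change −0.35 and −0.51) and stood at −1.41 at 24 h with a standard error of 0.67 (edgeR adjusted p = 0.147). ZEB2 fell at 24 h, 3 days and 12 days (−1.28, −0.63 and −0.82). TCF4 fell at 3 and 12 days (−0.54 and −0.35), and TCF3, an E-protein, rose by 0.25 and 0.30. CDH1 was higher than control at 24 h, 3 days and 12 days, the times at which SNAI1 was also higher and ZEB2 lower.

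Of 13 epithelial transcription factors, 11 were tested, with 3 higher and 2 lower at 3 h, 5 and 0 at 24 h, 2 and 8 at 3 days, and 4 and 5 at 12 days, where 11.5%, 28.8%, 48.6% and 49.8% of all genes changed in either direction. GRHL1, which binds epithelial junction genes, rose by 2.42, 1.55, 2.26 and 2.096, while FOXA1 (−0.89 and −0.56) and FOXA2 (−0.46 and −0.75) fell at 3 and 12 days. EHF fell at 3 h (−1.84) and 3 days (−0.72) and rose at 12 days (0.32).

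Among epithelial markers, 2 were higher and 0 lower of 9 tested at 3 h, 7 and 0 at 24 h, 7 and 1 at 3 days, and 8 and 1 at 12 days, the lower gene being MUC1 each time. The higher and lower shares of all genes were 7.39% and 4.11%, 16.8% and 12%, 25.2% and 23.3%, and 26.4% and 23.4%, here and for the mesenchymal markers. CLDN4, a tight junction claudin, rose by 1.58, 2.82, 2.44 and 2.37, and CLDN7 by 4.01 (SE 0.44) at 24 h, 1.74 at 3 days and 1.19 at 12 days. The level of CLDN7 was low, at means of 0.211 CPM in the 24 h control and 3.45 CPM at SP 24 h. KRT19 rose by 1.45, 2.18 and 2.55 and EPCAM by 1.44, 1.36 and 2.45 at 24 h, 3 days and 12 days. Of the 10 mesenchymal markers, 0 were higher and 1 lower at 3 h, 1 and 3 at 24 h, 6 and 1 at 3 days, and 8 and 2 at 12 days. VIM, vimentin, fell by 0.65 at 24 h (SE 0.09, edgeR adjusted p = 0.00109) and was higher by 0.34 and 0.45 at 3 and 12 days. FN1, fibronectin, fell by 1.12 at 12 days (SE 0.26, edgeR adjusted p = 0.00700), and NNMT, an enzyme that methylates nicotinamide, fell in all 4 comparisons (log2 fold change −1.05, −2.01, −2.001 and −1.91). SPARC rose by 2.34, 2.33 and 2.38 and TNC, tenascin C, by 1.13 and 2.14 at the late times.

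Other members of the cadherin superfamily were counted from fixed lists. Of 12 further classical cadherins, 4 were tested in the short and 8 in the long experiment (all genes changed: 11.5%, 28.8%, 48.6% and 49.8%, as for the lists that follow), with 1 higher and 0 lower at 3 h, 2 and 1 at 24 h, 2 and 3 at 3 days, and 4 and 2 at 12 days. The changed genes were CDH22, CDH24, CDH8 and CDH9 (higher) and CDH7, CDH19 and CDH26 (lower). CDH24 rose by 0.73, 1.39, 1.91 and 1.49. Of 7 desmosomal cadherins 3 were tested, and DSC2 (0.73) and DSG2 (0.40) rose at 12 days, with 0 changed before. Of 30 protocadherins, FAT and related genes, 23 were tested in the short experiment, with 2 and then 7 higher and 0 lower, and 22 in the long one, with 14 higher and 2 lower (CLSTN3 and CELSR2) at 3 days, then 9 and 3 at 12 days. PCDH1, protocadherin 1 of airway epithelium, rose by 2.91, 3.83, 3.99 and 4.38, and CDH23, a cadherin of hair cell links, by 2.22, 2.42 and 1.98 from 24 h on.

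Markers of other cell types moved too, against 11.5%, 28.8%, 48.6% and 49.8% of all genes changed from the earliest to the latest time, and their part in the cadherin results was not tested. Of 8 alveolar type II genes 4 were tested, with 0 changed at 3 h, 2 higher at 24 h, 3 at 3 days and 3 at 12 days, and ABCA3 was higher by 0.93 and 0.55 at the late times. Of 10 fibroblast and osteoblast genes, 0 of 6 changed at 3 h, 2 of 6 were higher at 24 h, and 3 of 5 at 3 and at 12 days, where COL1A1 was up by 2.22 and 1.48. Intestinal genes gave 0 of 5 at 3 h, 4 higher at 24 h, 2 higher and 1 lower at 3 days, and 2 higher and 2 lower at 12 days. Renal genes gave 0 of 3 and 2 of 3 higher at 3 h and 24 h, and 4 of 4 and 2 of 4 higher at 3 and 12 days. Neuronal genes gave 0 of 4 at 3 h, 1 of 4 higher at 24 h, 1 higher and 1 lower of 5 at 3 days, and 2 higher and 3 lower of 5 at 12 days. Endothelial genes gave 1 of 1 tested in the short and 1 of 2 in the long experiment, in each case ESAM. In the 3 days control, ABCA3 was at 104.6 ± 9.23 CPM, RBFOX3 at 71.6 ± 3.38 CPM and COL1A1 at 13.3 ± 0.191 CPM (SD, n = 3). CPM is not scaled to gene length, so these levels are not ranked against those of the cadherins. In bulk RNA, fewer cells of a type and less RNA per cell cannot be told apart.

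Likeness to CDH1 and CDH2 was described by the mean of the Pearson correlations of log2 CPM over the 9 libraries of each experiment, among 11279 genes. For CDH1 the highest were SLC44A2 (0.991), ADGRL1 (0.988), PALM (0.987), TLCD2 (0.986) and APLP1 (0.985). For CDH2 they were MDGA1 (0.929), LRRN2 (0.921), GPR161 (0.899), ADAM19 (0.898) and RBMS2 (0.892). The libraries share groups, depth and controls, and these values are a description.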

How the data were processed

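A549 RNA was prepared by the authors with the NEBNext Ultra kit. Reads were aligned to GRCh38 with STAR 2.7.9a and counted with featureCounts in R 4.2.1, per the study's methods and the submitters' processing notes. The authors deposited raw counts per Ensembl gene, without normalization, in 2 tables of 9 libraries. Strandedness and the handling of multiply mapped reads are not given in the sources used here. Symbols, positions and exon lengths came from GENCODE v44 on the same build, which held 61369 of the 61541 gene identifiers.

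The counts were fitted by robust quasi-likelihood in edgeR 4.0.16 (R 4.3.3), using all 9 libraries of a table and the group as the only term. The filter was filterByExpr at a minimum count of 10, which left 17775 genes in the long and 17377 in the short experiment, and TMM factors were 0.957 to 1.037. Benjamini-Hochberg adjustment ran over every gene tested, and a gene was said to change at an adjusted p under 0.05. The effects at 24 h and 3 days were compared in 1 fit of all 18 libraries. Alternatives were DESeq2 1.42.0, RLE factors, no filter, a correction for GC content and length, the replicate number as a block, only the groups compared, each library left out, and the study's thresholds (adjusted p under 0.0001 and fold change of 2). The procedure was tested on simulated data. Common biological coefficients of variation were 0.0996 (long) and 0.199 (short). Intervals of count ratios are exact 95% intervals and cover counting error only.

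Residuals of libraries with the same replicate number correlated at 0.17 to 0.50 for SP 24 h and its control. The block treats these as paired from the data, as the labels give only the number. In the other comparisons with control the values were −0.59 to 0.16, and no pairing was inferred. Libraries of unlike number also correlated, at 0.58 for SP 3 h replicate 3 and control (24 h) replicate 1, so pairing stays uncertain. The main results came from the fit with the group alone.

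The named genes are the 10 members, CTNNB1, CTNNA1, CTNND1, JUP, ZEB1, ZEB2, SNAI1, SNAI2, VIM and FN1, up to 2 further changed genes per list and table with the largest change among those with a mean count of at least 100, and the 5 genes most like CDH1 and CDH2. The members and lists were chosen with earlier results of these data known. The lists were catenins and adherens junctions, cadherin processing, CDH1 repressors, epithelial transcription factors, further classical, desmosomal and other cadherins, and mesenchymal, epithelial, alveolar, endothelial, fibroblast, intestinal, renal and neuronal markers. Some list members are not reported here by name.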

Additional observations from a re-analysis of the deposited data

Results flagged for a closer look

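Between SP times, 5 differences passed the test. CDH3 was higher at 24 h than at 3 h by 2.55 (SE 0.51, edgeR adjusted p = 0.00883) and CDH1 by 1.55, where 20.1% of all tested genes differed. CDH3 was higher at 12 days than at 3 days by 1.58, and CDH17 and CDH4 stood at −0.84 and −1.36 on the log2 scale (edgeR adjusted p of 0.00246 and 0.00261), where 8.1% of all genes differed. The SP effect on CDH2 at 24 h minus that at 3 days was −0.88 (edgeR adjusted p = 0.0117). CDH4, CDH16 and CDH17 were each highest in SP 12 days replicate 3 within its group, at 13.1, 0.886 and 54.9 CPM. Without it, CDH4 and CDH17 stood at −1.79 and −1.10 between 12 and 3 days.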

How the results depend on the processing

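The counts of changed cadherins, CDH1, CDH2 and their ratio gave 346 values under alternatives that answer a comparison, of which 313 were held to be the same. For a log2 fold change, same meant the same direction and side of the threshold. For a count it meant close to the main count, and for the ratio a shift under the larger group SD. The other members gave 555 values that were the same, 30 weaker, 24 stronger and 21 reversed. At the thresholds of the study, the count of changed cadherins was 0 at 24 h, 2 at 3 days, 3 at 12 days, 0 between 24 h and 3 h, and 0 between 12 and 3 days. There CDH1 at 24 h (2.23), CDH1 between 24 h and 3 h (1.55) and CDH2 at 3 days (0.90) no longer passed, and the adherens junction list had 4 changes over the 4 comparisons against 30. With the replicate block, 4 cadherins changed between 24 h and 3 h, and also 4 with block and GC content and length correction, without the filter and with only the groups compared. With the block and correction 5 changed at 24 h. The block alone moved no count of calls in the comparisons with control. Leaving out a library gave 1 to 4 changed cadherins between 24 h and 3 h, and 3 to 7 between 12 and 3 days, the 7 without SP 12 days replicate 3, 0 at 3 h, 2 to 3 at 24 h, 5 to 7 at 3 days and 7 to 8 at 12 days. For CDH1 between 24 h and 3 h it gave 1.31 to 1.96, and without the filter 1.57 (edgeR adjusted p = 0.0830). CDH1 and CDH2 between 12 and 3 days ranged over −0.21 to −0.13 and 0.19 to 0.26 and passed without SP 12 days replicate 3 alone. CDH2, without any call, ranged over −0.084 to 0.27 at 3 h, −0.12 to 0.24 at 24 h and −0.090 to 0.046 between 24 h and 3 h, where the correction gave 0.040 and with the block 0.025. The CDH1 difference of effects passed without the filter (0.88, edgeR adjusted p = 3.85e-04). With the longest transcript as length, CDH1 in the 3 days control was at 32.8 RPKM instead of 25.96, a factor of 1.26, where the factor for CDH2 was 2.14. Among uncalled members, signs turned for CDH3 at 3 h (RLE −0.012, no filter −0.0018, correction −0.10, with block −0.054, leaving out a library −0.42 to 1.74), CDH4 at 3 h (block 0.11, libraries −0.39 to 0.57), CDH6 at 3 h (−0.29 to 0.18) and CDH17 at 3 h (−0.40 to 0.093). They also turned for CDH4 at 24 h (−0.53 to 0.43), CDH16 at 24 h (correction −0.034), CDH17 at 3 days (correction −0.0012, with block −0.0038, libraries −0.012 to 0.062), CDH4 between 24 h and 3 h (−0.31 to 0.018), CDH6 between 12 and 3 days (−0.39 to 0.071) and the CDH6 difference of effects (no filter 0.0082). The cause was not tested. Where a library was left out of a group, the remaining pair was taken to vary like the other groups. Read depth limits CDH3, CDH5, CDH11, CDH13 and CDH16 most.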

Other observations

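Of the 10 cadherins, 6 lie on chromosome 16, and CDH3 and CDH1 are neighbours there. Within 500 kb of this pair 61 other genes are annotated and 17 were tested in both experiments. At 3 days 4 of the 17 were higher and 5 lower, with a median log2 fold change of −0.18, and at 12 days 3 were higher and 5 lower, with a median of −0.16. The higher share of all genes was 25.2% at 3 days (26.4% at 12 days) and the lower share 23.3% (23.4%), near those of these neighbours at 3 days. At 24 h 2 were higher and 0 lower, and at 3 h 1 was higher and 2 lower, against 16.8% and 12%, and 7.39% and 4.11%, of all genes. HAS3, which makes hyaluronan and was named after its value was seen, had the largest rise of these neighbours at the late times, at 1.65 and 1.91.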
